A study of Mus musculus with 17 samples.

Results

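Serum levels of 5 mature microRNAs (miRNAs) of smooth muscle and fibroblasts were examined in 17 mice: mmu-miR-143-3p, mmu-miR-145a-5p and mmu-miR-145a-3p from the cluster of miR-143 and miR-145a, and mmu-miR-199a-5p and mmu-miR-214-3p from the genes of miR-199a and miR-214. They were chosen by name among the 365 assays of the table, 357 of which are for miRNAs. The assay was real-time PCR on panels made for serum miRNA, with SYBR Green as the dye, 40 cycles, and RNA from 50 µL of serum per mouse. Blood had been taken at necropsy. Wild-type FVB/N mice, all healthy, numbered 3. Of the transgenic AT-ATX mice, 7 had no tumors and 7 had tumors that arose spontaneously. AT-ATX mice carry a transgene for Autotaxin, which is secreted and produces lysophosphatidic acid, a lipid that signals through cell-surface receptors. The sources used here do not give the promoter of the transgene, the genetic background of the AT-ATX mice, the tumor sites or the ages of the mice. Tumor replicate 5 has a question mark in its label and was kept as a tumor mouse. The labels name each sample as a mouse of its own, and p-values measure the spread between these mice. Some AT-ATX labels share a number. It is 77 for tumor-free replicate 2 and tumor replicates 2 and 3, and 85 for tumor-free replicates 4 and 5 and tumor replicate 4. Tumor-free replicates 6 and 7 share 87. The meaning of the number is not stated, nor whether such mice are related, and the main tests took all 17 as independent.

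miR-143 and miR-145 are made from neighbouring hairpins of 1 gene and are known as the miRNAs of vascular and visceral smooth muscle, where serum response factor and myocardin drive them. They repress Klf4, Klf5 and other targets and so favour the contractile state of the cell. The hairpins of miR-199a-2 and miR-214 are cut from Dnm3os, a long non-coding RNA of mesenchymal cells, which Twist1 induces and which is known for its part in skeletal development and fibrosis. A hairpin yields a 5p and a 3p strand, of which 1 is usually the more abundant. In serum, miRNAs travel in vesicles and protein complexes and can come from any tissue or blood cell, so that the number of releasing cells and the amount released by each cannot be told apart.

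The sequences below show which assays measure strands of the same hairpin and which target near-identical RNAs. They are written 5′ to 3′ with the seed (bases 2 to 8), which pairs with target mRNAs, in capitals. They come from the RefSeq table of build GRCm38.p6, which held 260 of the 317 mouse assays and 2 of the 5 miRNAs described here. miR-199a-5p has identical copies in Mir199a-2 at chr1:162217844-162217866 (plus strand) and in Mir199a-1 at chr9:21496537-21496559 (minus strand). miR-199a-3p is the other strand of these hairpins. miR-214-3p lies at chr1:162223438-162223459 (plus strand), and miR-214-5p is the other strand of the Mir214 hairpin.
miR-199a-5p: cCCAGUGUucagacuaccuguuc
miR-199a-3p: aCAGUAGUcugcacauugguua
miR-214-3p: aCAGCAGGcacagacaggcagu
miR-214-5p: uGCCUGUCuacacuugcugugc
None of these 4 seeds was that of another miRNA assay with a RefSeq sequence on the panel. Mir199a-2 and Mir214 are 5444 bases apart inside the non-coding gene Dnm3os (chr1:162217623-162225550), which itself lies within Dnm3. Mir199a-1 lies within Dnm2 and Mir199b within Dnm1. The hairpin of Mir199b holds, at its bases 26 to 48, the sequence of miR-199a-5p with the single substitution C10U, counted from the 5′ end of miR-199a-5p. In the line for it, the capital marks the substituted base.
Mir199b hairpin: cccaguguuUagacuaccuguuc
The substitution lies outside the seed, so this stretch has the seed of miR-199a-5p. Whether the assay for miR-199a-5p also reads miR-199b-5p was not tested, nor whether that for miR-199a-3p also reads the 3p strand of Mir199b. Mir143 and Mir145a are 1301 bases apart.

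The values are quantification cycles (Ct), the cycle at which the fluorescence crosses a threshold, so a lower Ct means more template. Each Ct was subtracted from the panel mean Ct, taken over the 252 miRNA assays with a value in every mouse, to give the level of the miRNA. It is on a log2 scale, so a difference of 1 is a 2-fold difference under full PCR efficiency. Levels are relative to the panel and are not amounts per volume, and levels of different assays are not set against each other, since their efficiencies are unknown. Between 312 and 356 miRNA assays were detected per mouse, and the panel mean Ct was 27.0 to 30.0 in wild-type mice, 28.1 to 30.5 in tumor-free mice and 27.95 to 31.7 in tumor mice. Some mice stood apart in ways the groups do not explain. The Ct of the small nuclear RNA U6 was 24.1 in wild-type replicate 1 and 25.5 in tumor replicate 5, against 28.1 to 36.6 in the other 15 mice. In tumor-free replicates 4, 5 and 7 and tumor replicate 1, all values shared 1 decimal ending, whereas the other 13 mice had 2 endings that split the assays in the same way. What this marks was not tested. Of the miRNAs described here, miR-145a-3p fell in the second set with miR-199b-5p and miR-214-5p, and the other 4 in the first. miRNAs known from other cells were present in every mouse, among them the red-cell miR-451a, the hepatic miR-122-5p, the endothelial miR-126a-3p and miR-133a-3p of striated muscle, so the serum does not show which cells released the 5 miRNAs.

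miR-143-3p, the main strand of miR-143, was among the more abundant miRNAs, with a median Ct of 26.3, rank 48 of the 338 assays tested. Its level was 3.12, 1.33 and 2.77 in the 3 wild-type mice. It lay between 2.86 and 3.92 with a median of 3.61 in the 7 tumor-free mice, and between 2.44 and 4.002 with a median of 3.24 in the 7 tumor mice. Wild-type replicate 2 was the lowest of all 17 mice, and the other wild-type mice lay within the range of the tumor mice. The spread between tumor-free mice was small (SD 0.34, n = 7).

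miR-145a-5p, the main strand of miR-145, was as early on the panel, with a median Ct of 26.2. Its level was 2.66, 2.29 and 3.73 in the wild-type mice. It ran from 2.71 to 3.84 in tumor-free mice, with a median of 3.12, and from 0.52 to 4.47 in tumor mice, with a median of 3.20. The lowest and the highest of the 17 values both belonged to tumor mice, replicates 5 and 1, and the groups overlapped.

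miR-145a-3p, the minor strand of the miR-145a hairpin, was near the detection limit. It was detected in 3 of 3 wild-type, 6 of 7 tumor-free and 4 of 7 tumor mice, too few for the test across assays. Its Ct was 33.4, 36.2 and 34.7 in the wild-type mice, 32.2 to 36.7 with a median of 34.9 in the 6 tumor-free mice, and 36.2, 35.01, 35.98 and 32.4 in tumor replicates 2, 5, 6 and 7. The 4 mice without a value were tumor-free replicate 2 and tumor replicates 1, 3 and 4. Detection was not shown to differ between tumor and tumor-free mice (Fisher's exact test, two-sided, p = 0.559), tumor and wild-type mice (exact p = 0.475) or tumor-free and wild-type mice (exact p = 1).

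miR-199a-5p, a strand known from activated fibroblasts and from heart muscle, was less abundant, with a median Ct of 30.7, rank 158. Its level was −0.93, −4.73 and −3.15 in the wild-type mice, from −2.13 to 0.14 with a median of −0.26 in tumor-free mice, and from −4.99 to 0.81 with a median of −1.42 in tumor mice. Both ends of the range over all 17 mice were tumor mice, replicates 4 and 7. Wild-type replicates 2 and 3 were lower than every tumor-free mouse, and wild-type replicate 1 was not.

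miR-214-3p, which is known to repress Ezh2, had a median Ct of 31.0, rank 168. Its level was 0.53, −3.98 and −2.47 in the wild-type mice, from −2.50 to 2.09 with a median of −1.67 in tumor-free mice, and from −3.38 to 0.82 with a median of −2.46 in tumor mice. Tumor-free replicate 2, at 2.09, was the highest of all 17 mice, and the next tumor-free mouse was at −0.69. The wild-type mice alone spanned most of the range of the series.

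**Figure D1:**
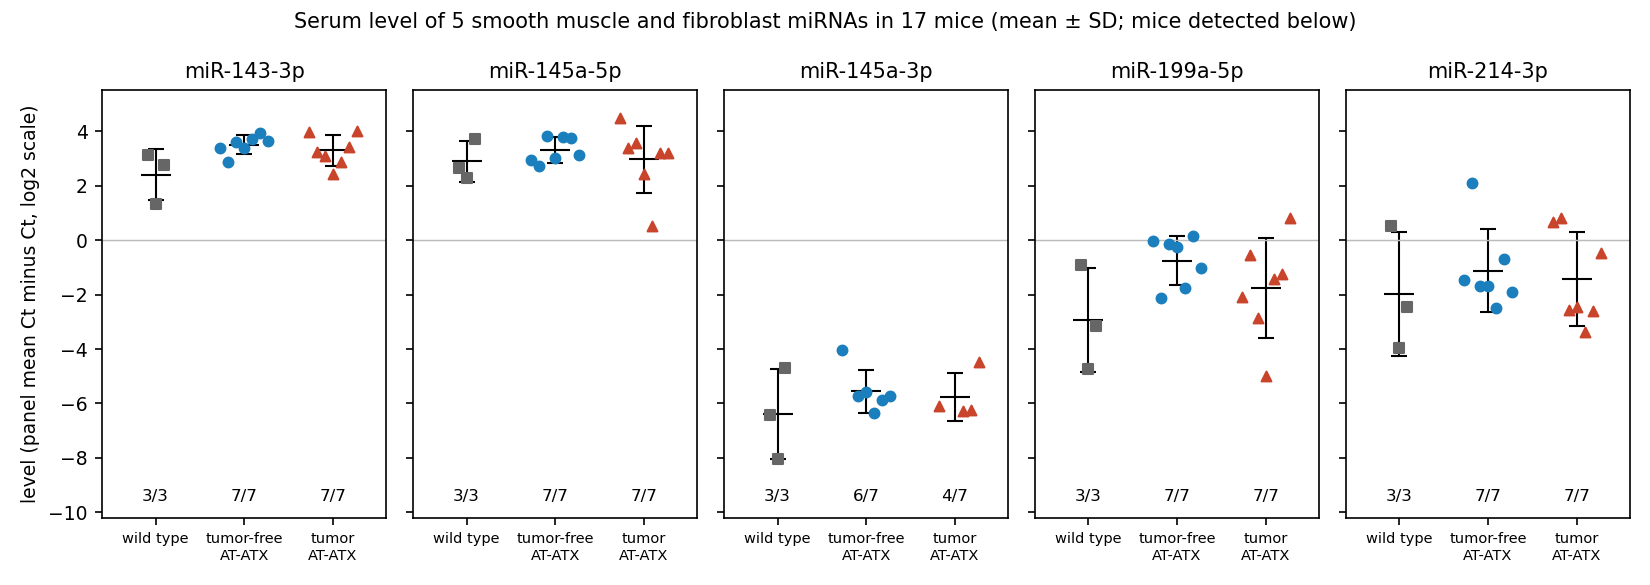
Level of each of the 5 miRNAs (panel mean Ct minus own Ct, log2 scale) in each mouse, with 1 point per mouse, a horizontal bar for the group mean and whiskers for the SD; the count of mice in which the assay was detected is printed at the foot. The groups overlap for every miRNA, the spread is small for miR-143-3p in tumor-free mice (SD 0.34) and wide for miR-214-3p (SD 1.52 to 2.29), and tumor-free replicate 2 stands above the other tumor-free mice for miR-214-3p at 2.09.

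The first comparison, tumor against tumor-free AT-ATX mice, asks which serum miRNAs go with tumors when both groups carry the transgene. None of the 4 tested miRNAs passed (limma with Benjamini-Hochberg adjustment over 338 assays, threshold 0.05), against 1.48% of all assays. All 4 log2 differences were below 0. They were −0.21 (SE 0.35) for miR-143-3p, −0.33 (SE 0.48) for miR-145a-5p, −1.01 (SE 0.73) for miR-199a-5p and −0.31 (SE 0.82) for miR-214-3p, with limma adjusted p from 0.512 to 0.857. The median over the 4 was −0.32, and over all 338 assays it was 0.14. The intervals were too wide to show that levels were alike: the 95% interval for miR-199a-5p ran from −2.53 to 0.52, and the narrowest, for miR-143-3p, from −0.95 to 0.53. Without tumor replicate 5 the difference of miR-145a-5p was 0.074, and without tumor-free replicate 2 that of miR-214-3p was 0.22. That of miR-199a-5p was −0.47 without tumor replicate 4 (adjusted p = 0.801) and −0.49 when Ct values of 35 or more were treated as missing (adjusted p = 0.72). None of the 4 had groups that did not overlap, against 1.18% of assays.

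The second comparison, tumor-free AT-ATX against wild-type mice, asks what goes with the transgene in the absence of tumors. The wild-type mice are FVB/N, and the background of the AT-ATX mice and all ages are not given. Transgene, background and age therefore cannot be told apart in either comparison with wild-type mice. The 4 log2 differences were above 0 on the panel mean scale, and none passed, against 0.592% of all assays. miR-143-3p differed by 1.10 (SE 0.46), a 2.14-fold higher mean in tumor-free mice, with a 95% interval from 0.14 to 2.06 and limma adjusted p = 0.176. miR-199a-5p differed by 2.19 (SE 0.94), with an interval from 0.22 to 4.15 and adjusted p = 0.187. These 2 had an unadjusted p under 0.05, as did 76 of the 338 assays. miR-145a-5p differed by 0.42 (SE 0.62, adjusted p = 0.704) and miR-214-3p by 0.86 (SE 1.06, adjusted p = 0.647). The median over the 4 was 0.98 and over all assays 0.03. None of the 4 had groups that did not overlap, against 12.7% of assays.

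These positive differences turned on the scaling and on single wild-type mice. On spike-in scaling miR-143-3p differed by −0.043, miR-145a-5p by −0.73 and miR-214-3p by −0.29, while miR-199a-5p differed by 1.04. On that scale the median over all assays was −1.19, and all 4 were above that median. Without wild-type replicate 2 the difference of miR-143-3p was 0.56 (adjusted p = 0.618), that of miR-199a-5p was 1.29 and that of miR-214-3p −0.14. Without wild-type replicate 1, the mouse with the early U6 signal, they were 3.19 (adjusted p = 0.0919) for miR-199a-5p and 2.11 for miR-214-3p.

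The third comparison, tumor against wild-type mice, shares its groups with the other comparisons. The log2 differences were 0.89 (SE 0.46) for miR-143-3p, 0.08 (SE 0.62) for miR-145a-5p, 1.18 (SE 0.94) for miR-199a-5p and 0.54 (SE 1.06) for miR-214-3p. None of the 4 passed, with limma adjusted p from 0.234 to 0.955, against 8.28% of all assays, and their groups overlapped, as those of all but 9.17% of assays did. The median over the 4 was 0.72 and over all assays 0.19. On raw Ct all 4 differences were below 0, from −0.20 for miR-199a-5p to −1.30 for miR-145a-5p, where the median over all assays was −1.22.

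By the mouse assays, the group means of each of the 4 miRNAs stood in the same order, lowest in wild-type, then tumor, then highest in tumor-free mice. By the rat assay of miR-214-3p tumor mice were highest, with mean levels of −0.24 ± 1.72 (SD, n = 3) in wild-type, 0.62 ± 0.44 (n = 7) in tumor-free and 1.07 ± 1.38 (n = 7) in tumor mice. By its mouse assay, miR-199a-5p had mean levels of −2.94 ± 1.91 (SD, n = 3) in wild-type, −1.76 ± 1.84 (SD, n = 7) in tumor and −0.75 ± 0.91 (SD, n = 7) in tumor-free mice. The other mouse assays are given in that same order, wild-type, tumor and then tumor-free mice. Means were −1.97 ± 2.29, −1.43 ± 1.73 and −1.12 ± 1.52 for miR-214-3p, and 2.41 ± 0.95, 3.30 ± 0.57 and 3.51 ± 0.34 for miR-143-3p. Those of miR-145a-5p were 2.89 ± 0.75, 2.97 ± 1.24 and 3.31 ± 0.47. No neighbours in this order passed the test, and the order is that of the panel mean scale: on spike-in scaling miR-143-3p, miR-145a-5p and miR-214-3p were highest in wild-type mice.

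Of the other assays for these genes, 5 were on the panel: the second strands miR-199a-3p and miR-214-5p, the paralog miR-199b-5p, and assays named for rat miR-143-3p and miR-214-3p. None passed in any comparison. Tumor-free against wild-type mice, miR-199a-3p differed by 2.35 (SE 0.91, adjusted p = 0.161), miR-199b-5p by 2.94 (SE 1.18, adjusted p = 0.176) and miR-214-5p by 2.07 (SE 0.93, adjusted p = 0.189). In tumor against tumor-free mice they differed by −0.33, −1.68 and −0.01. The rat assay of miR-214-3p differed by 0.45 (SE 0.57, adjusted p = 0.766) in tumor against tumor-free and 0.85 (SE 0.74, adjusted p = 0.489) in tumor-free against wild-type mice, and that of miR-143-3p by −0.23 and 1.09. miR-214-5p was not detected in tumor replicate 4, which its fit left out. The values of both second strands against wild-type mice turned on single wild-type mice. Without wild-type replicate 2, miR-199a-3p differed by 1.25 in tumor-free (adjusted p = 0.58) and 0.92 in tumor mice (adjusted p = 0.697), and miR-214-5p by 0.65 (adjusted p = 0.771) and 0.64 (adjusted p = 0.772). Without wild-type replicate 1, miR-199a-3p passed in tumor-free against wild-type mice at 3.54 (limma adjusted p = 0.0429) and in tumor against wild-type mice at 3.21 (adjusted p = 0.0392). Likewise miR-214-5p then passed at 3.52 (adjusted p = 0.0381) and 3.51 (adjusted p = 0.0265). The level of miR-214-5p in wild-type replicates 1, 2 and 3 was −2.83, −8.57 and −5.75, that is, replicate 1 lay within the range of the tumor-free mice (−4.72 to −2.77) and the others below it.

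**Figure D2:**
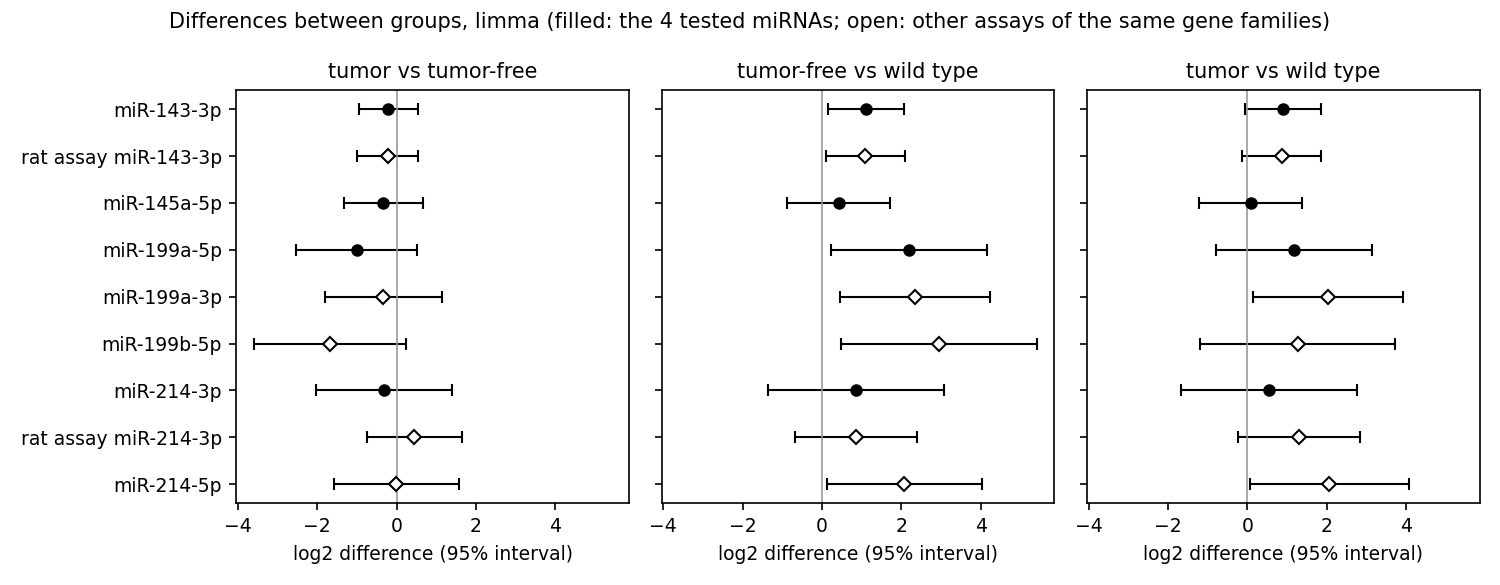
Log2 difference of level between groups with its 95% interval from limma, for the 4 tested miRNAs (filled circles) and 5 further assays of the same gene families (open diamonds), in each of the 3 comparisons. Against wild-type mice all points lie above 0 on this scale, up to 2.94 for miR-199b-5p, none passed the adjusted threshold, and the intervals of miR-145a-5p and miR-214-3p cross 0 in every panel.

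Differences of Ct within a mouse do not depend on the scaling and show how miRNAs of 1 transcript or hairpin stood to each other. The Ct of miR-143-3p minus that of miR-145a-5p, from neighbouring hairpins, was 0.48 ± 0.82 in wild-type, −0.20 ± 0.28 in tumor-free and −0.32 ± 1.00 cycles in tumor mice (SD, n = 3, 7 and 7). In tumor-free mice the 2 miRNAs thus kept within −0.54 to 0.22 cycles of each other. The widest gap, −2.36, was in tumor replicate 5. The Ct of miR-145a-3p minus that of miR-145a-5p, the strands of 1 hairpin, was 8.84 ± 1.12 cycles over the 13 mice with both, from 6.80 to 10.3. The 4 mice in which miR-145a-3p was not detected are left out, and their gap could be wider. These assays also fell in different sets by decimal ending, and the part of that in the gap was not tested.

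miR-199a-5p and miR-214-3p, which share the Dnm3os transcript, differed more from mouse to mouse. The Ct of miR-199a-5p minus that of miR-214-3p was 1.45, 0.75 and 0.68 cycles in the wild-type mice, and from −1.52 to −0.73 in 6 tumor-free mice. It was 4.22 in tumor-free replicate 2. In tumor mice it was 2.74, 1.35, 0.29, 2.53, −1.96, −1.37 and −1.29 in replicates 1 to 7. With the rat assay of miR-214-3p in place of the mouse assay, the difference ran from 0.41 to 5.22 over the 17 mice. It was then 2.81 in tumor-free replicate 2, and its SD in tumor-free mice was 0.81, against 2.05 with the mouse assay. The values with the rat assay were not tested between groups. By the mouse assays, none of the 9 tests of within-mouse differences between groups passed (exact two-sided permutation test, adjusted over 9 tests, adjusted p from 0.6 to 0.844). The smallest unadjusted exact p was 0.0667, for miR-143-3p minus miR-145a-5p in tumor-free against wild-type mice, where 7 mice against 3 allow none below 0.00833. A test that reached this floor alone would still not pass after adjustment over 9 tests. Not passing against wild-type mice is therefore not read as likeness. Without tumor-free replicate 2, the group difference of miR-199a-5p minus miR-214-3p was −2.10 cycles in tumor-free against wild-type mice (−1.33 with it). The 6 tumor-free mice then all lay below the 3 wild-type mice, whereas with replicate 2 the groups overlapped. The exact p was thus the smallest that 6 mice against 3 allow, 0.0119 (adjusted 0.107), and passing was out of reach. That mouse is singled out by its own value in this same difference, so the separation is not read as a result. For scale, levels of 12.7% of all assays did not overlap between the full tumor-free and wild-type groups. In tumor against tumor-free mice the difference of miR-199a-5p minus miR-214-3p was 1.46 without tumor-free replicate 2 (0.70 with it).

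The rat assays gave a second reading of 2 of the miRNAs in the same sera, added after the data were seen, with no test between groups. For miR-143-3p the mouse and rat assays agreed within 0.20 cycles in every mouse, with a mean difference of 0.02 ± 0.11 cycles (SD, n = 17). For miR-214-3p the mouse assay came 2.05 ± 1.05 cycles later than the rat assay. In 16 mice this gap was between 0.89 and 3.15 cycles, and in tumor-free replicate 2 it was −1.41. The rat assay put that mouse at a Ct of 29.8, within the 27.8 to 30.0 of the tumor-free mice, and the mouse assay put it at 28.4, the earliest of the 7. The high level of miR-214-3p in tumor-free replicate 2 was therefore seen with 1 of the 2 assays. Measured by the rat assay, the SD of the level in tumor-free mice was 0.44, against 1.52 by the mouse assay.

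The assays of miR-199a-5p and miR-199a-3p moved closely together. The Ct of miR-199a-5p was 2.29 ± 0.65 cycles later than that of miR-199a-3p (SD, n = 17), from 1.46 to 3.58. The Ct of miR-199a-5p minus that of miR-199b-5p, assays of different decimal sets, was 0.85 ± 0.90 cycles, from −0.91 to 2.68.

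**Figure D3:**
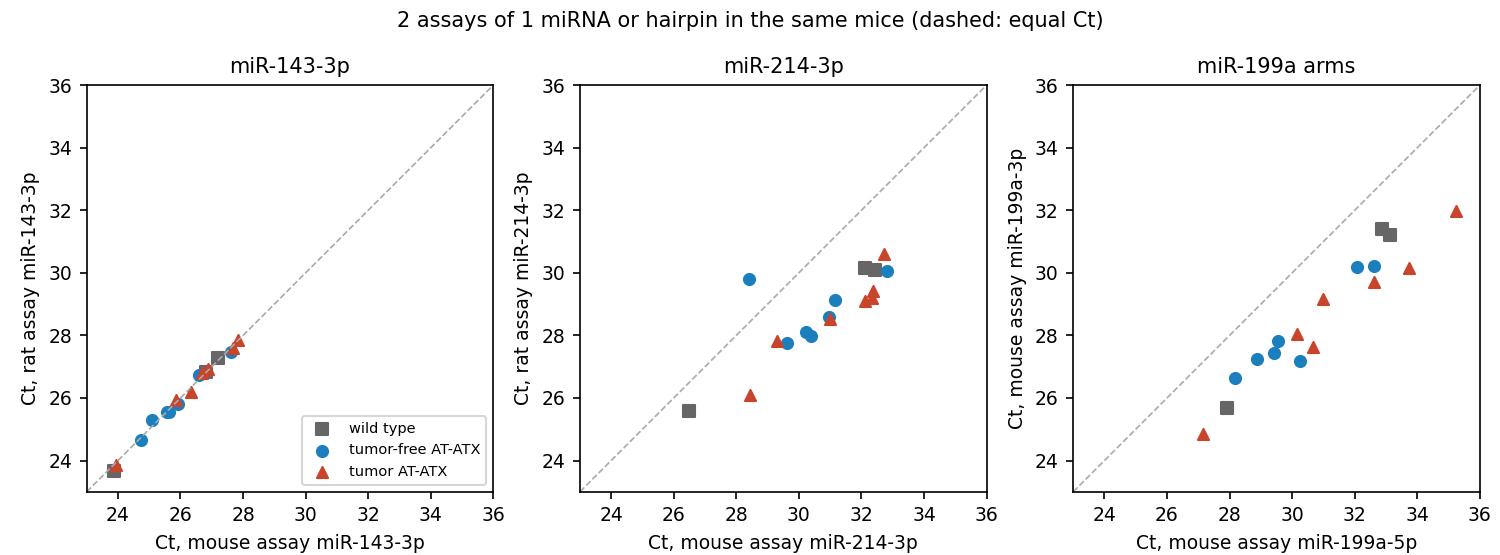
Ct of 1 assay against Ct of another in the same 17 mice, for mouse and rat miR-143-3p, mouse and rat miR-214-3p, and the 5p and 3p strands of miR-199a; the dashed line marks equal Ct. miR-143-3p lies on the line within 0.20 cycles, miR-214-3p lies below it by 0.89 to 3.15 cycles except tumor-free replicate 2, which lies above it by 1.41, and miR-199a-3p is earlier than miR-199a-5p in every mouse.

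The clusters differed in how much they varied within a group. The pooled within-group SD of level was 0.56 for miR-143-3p, rank 305 of 338 from the most variable, and 0.91 for miR-145a-5p, close to the median of all assays (0.91). It was 1.52 for miR-199a-5p (rank 25) and 1.74 for miR-214-3p (rank 14). The related miR-199b-5p (1.96, rank 8), miR-214-5p (1.51, rank 28) and miR-199a-3p (1.45, rank 40) were also variable. The rat assay of miR-214-3p had an SD of 1.15 (rank 99). The miR-199 and miR-214 assays also came later (median Ct 28.1 to 33.2) than those of miR-143-3p and miR-145a-5p (26.3 and 26.2). The part of a later Ct in the spread was not tested.

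Part of the spread followed the hemolysis index, a difference of Ct in which the red-cell miR-451a is subtracted from miR-23a-3p and which rises with red-cell RNA in the serum. It ran from 3.71 to 7.82 in wild-type, 3.56 to 5.54 in tumor-free and 2.21 to 7.09 in tumor mice. After the mean of each group was subtracted, over 17 mice, the level of miR-199a-5p fell with the index (r = −0.86, permutation p = 0.00024, adjusted over 252 assays 0.00224; rho = −0.77, permutation p = 0.0027, adjusted 0.014). So did miR-143-3p (r = −0.84, permutation p = 0.00026, adjusted 0.00228; rho = −0.78, p = 0.00244, adjusted 0.0134). These 2 of 4 are read against 43.3% of all assays that passed, 19.4% with a negative r. For miR-214-3p r was −0.55 (permutation p = 0.0506, adjusted 0.0945; rho = −0.61, p = 0.0298, adjusted 0.0665), and for miR-145a-5p it was −0.41 (permutation p = 0.214, adjusted 0.318; rho = −0.37, p = 0.218, adjusted 0.322).

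The relations with the index rested in part on 2 mice. Without wild-type replicate 2 and tumor replicate 4, the 2 farthest from the median index, r was −0.71 for miR-199a-5p (adjusted p = 0.0546), −0.69 for miR-143-3p (adjusted p = 0.0752), −0.45 for miR-214-3p and −0.33 for miR-145a-5p. Within tumor-free mice r was −0.81 for miR-199a-5p, −0.54 for miR-143-3p, −0.24 for miR-145a-5p and 0.35 for miR-214-3p. Within tumor mice it was −0.82, −0.86, −0.46 and −0.74 in the same order, and 3 wild-type mice are too few for a value. Without tumor-free replicate 2, miR-214-3p had r = −0.80 (adjusted p = 0.0279), and its rat assay had r = −0.81 with all mice (permutation p = 0.00394, adjusted 0.0145; rho = −0.76, p = 0.00816, adjusted 0.0285). miR-199a-3p had r = −0.92 (permutation p = 2e-05, adjusted 0.00084; rho = −0.88, p = 0.00016, adjusted 0.00252; −0.83 without the 2 mice), the lowest of all 252 assays. The index holds 2 miRNAs, and the level of miR-23a-3p also went with miR-143-3p (r = 0.83). Against the level of miR-451a alone, r was −0.91 for miR-199a-5p and −0.76 for miR-143-3p. On raw Ct the relations with the index were weaker, −0.63 (adjusted p = 0.329) and −0.50 (adjusted p = 0.393), and none of the 4 passed.

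With the index as a covariate in limma, none of the 4 passed in any comparison. In tumor against tumor-free mice the difference of miR-199a-5p was then −1.34 (adjusted p = 0.0548). In tumor-free against wild-type mice it was 1.19 (adjusted p = 0.227), against 2.19 without the covariate, and in tumor against wild-type mice it was −0.15. That of miR-143-3p was 0.74 in tumor-free and 0.41 in tumor against wild-type mice. The part of red-cell RNA in the group differences was not tested beyond these fits.

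**Figure D4:**
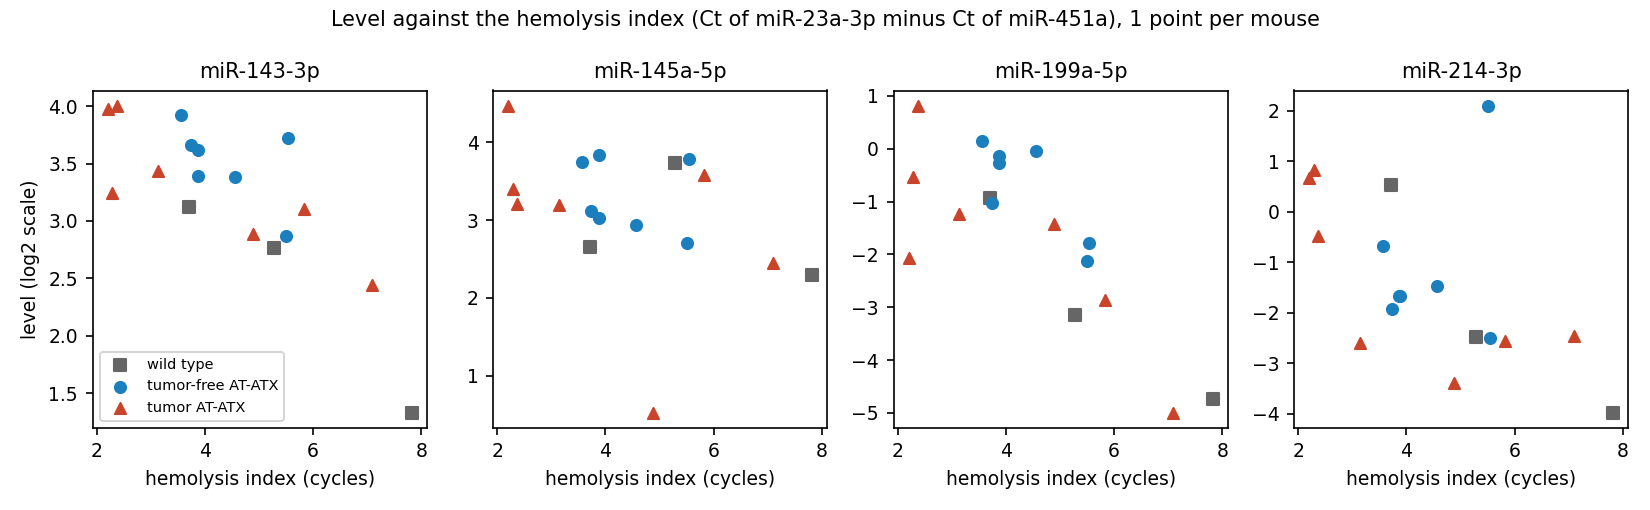
Level of the 4 tested miRNAs (log2 scale) against the hemolysis index (cycles), with 1 point per mouse and groups by colour and marker. Levels of miR-143-3p and miR-199a-5p are lowest in the mice with the highest index, wild-type replicate 2 (7.82) and tumor replicate 4 (7.09), and tumor-free replicate 2 lies apart for miR-214-3p at a level of 2.09.

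miRNAs of the same cluster were next compared from mouse to mouse, again within groups and with p adjusted over the 998 relations of the 4 miRNAs with the other assays detected in all mice, of which 14% passed. miR-143-3p and miR-145a-5p had r = 0.57 (permutation p = 0.0359, adjusted 0.127; rho = 0.62, p = 0.0264, adjusted 0.114). It was 0.58 without the 2 mice farthest from the median, 0.81 within tumor-free and 0.60 within tumor mice. miR-199a-5p and miR-214-3p had r = 0.36 (permutation p = 0.221, adjusted 0.392; rho = 0.47, p = 0.0982, adjusted 0.242), 0.17 without the 2 farthest mice and 0.61 without tumor-free replicate 2. With the rat assay of miR-214-3p, miR-199a-5p had r = 0.60 (permutation p = 0.0533, adjusted 0.165) and rho = 0.61 (adjusted 0.136). Neither pair of cluster partners thus passed on the panel mean scale. On spike-in scaling miR-199a-5p and mouse miR-214-3p had r = 0.64 (adjusted permutation p = 0.0475), a scale on which 4 of the 6 pairs passed. Centring on the panel mean couples levels, and on raw Ct miR-143-3p and miR-145a-5p had r = 0.81 (adjusted p = 0.00349), where differences in total RNA between sera are shared by all assays. Pairs across clusters were also higher on raw Ct, 0.95 for miR-143-3p and miR-199a-5p (adjusted p = 0.000164) and 0.75 for miR-145a-5p and miR-199a-5p (adjusted p = 0.0086). The 14% above is for the panel mean scale, and the share of all relations that passed on raw Ct or spike-in scaling is not given here. Passes on those scales are therefore not read as a result about the pairs.

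Across clusters, miR-143-3p and miR-199a-5p had r = 0.72 (permutation p = 0.00697, adjusted 0.0497; rho = 0.61, p = 0.0294, adjusted 0.122). It fell to 0.48 without wild-type replicate 2 and tumor replicate 4, with no p computed there. The call was lost on leaving out any of 12 of the 17 mice, and kept on leaving out tumor replicate 1 or 5 or tumor-free replicate 1, 4 or 5. Within tumor-free mice r was 0.49 and within tumor mice 0.71. The other pairs did not pass: r was 0.38 for miR-143-3p and miR-214-3p (permutation p = 0.216, adjusted 0.388; rho = 0.45, adjusted 0.284), 0.30 for miR-145a-5p and miR-214-3p (p = 0.303, adjusted 0.487; rho = 0.21, adjusted 0.646) and 0.11 for miR-145a-5p and miR-199a-5p (p = 0.737, adjusted 0.842; rho = 0.16, adjusted 0.731). The value for miR-145a-5p and miR-214-3p was −0.12 without the 2 farthest mice.

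Repeat assays and strands of the same genes set the scale for these values. The mouse and rat assays of miR-143-3p had r = 0.98 (adjusted permutation p = 0.00166; rho = 0.97, adjusted 0.00333). Those of miR-214-3p had r = 0.81 (adjusted p = 0.0128; rho = 0.84, adjusted 0.0339), and 0.95 without tumor-free replicate 2 and tumor replicate 2. miR-199a-5p had r = 0.93 with miR-199a-3p (adjusted p = 0.00333; rho = 0.86, adjusted 0.02) and r = 0.90 with miR-199b-5p (adjusted p = 0.00299; rho = 0.82, adjusted 0.0259).

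The assays most like each miRNA over the 17 mice were picked as the 3 with the highest r among assays of other genes, so their r is given as a description. miR-199a-5p went with miR-125a-5p (r = 0.97), miR-125b-5p (0.93) and miR-99a-5p (0.93), and each r was at least 0.90 without wild-type replicate 2 and tumor replicate 4. miR-143-3p went with miR-187-3p (0.87), miR-23a-3p (0.83) and miR-200b-3p (0.83), which became 0.80, 0.59 and 0.69 without those 2 mice. miR-145a-5p went with miR-215-5p (0.82), miR-574-3p (0.81) and miR-205-5p (0.80). These fell to 0.28, 0.49 and 0.54 without tumor replicates 1 and 5. miR-214-3p went with miR-434-3p (0.80), miR-23b-3p (0.72) and the rat assay of miR-136-5p (0.68), which became 0.91, 0.80 and 0.86 without tumor-free replicate 2 and tumor replicate 2. The cluster partners could not be among these 3, since the choice left out the miRNAs described here and the other assays of their families. Ranked by r among all 251 other assays, miR-145a-5p stood at 39 for miR-143-3p and miR-143-3p at 17 for miR-145a-5p. miR-214-3p stood at 79 for miR-199a-5p and miR-199a-5p at 52 for miR-214-3p.

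Against miRNAs that mark other sources, miR-199a-5p had r = −0.91 with miR-451a of red blood cells (permutation p = 1e-05, the smallest that 100000 reorderings can give, adjusted 0.00166; rho = −0.83, adjusted 0.0228). It had r = 0.84 with miR-133a-3p of striated muscle (permutation p = 0.0001, adjusted 0.00554; rho = 0.89, adjusted 0.00798), 0.67 with miR-122-5p of liver (adjusted 0.0847; rho = 0.70, adjusted 0.0645) and 0.11 with miR-126a-3p of endothelium (adjusted 0.842; rho = 0.13, adjusted 0.79). miR-143-3p had r = −0.76 with miR-451a (adjusted permutation p = 0.02; rho = −0.72, adjusted 0.0645) and 0.61 with miR-133a-3p (adjusted 0.0967; rho = 0.59, adjusted 0.123). miR-145a-5p and miR-214-3p passed with none of these 4 markers. miR-145a-5p had r = 0.77 with miR-126a-3p (adjusted permutation p = 0.0847; rho = 0.48, adjusted 0.228). miR-214-3p had r = 0.55 with both miR-126a-3p (adjusted 0.132) and miR-133a-3p (adjusted 0.138). With the platelet miR-223-3p, r was 0.28 to 0.55 over the 4 miRNAs and none passed (adjusted permutation p from 0.146 to 0.571). The mean level of the 3 striated muscle miRNAs detected in all mice ran from −1.78 to 2.53 in wild-type, −0.05 to 4.64 in tumor-free and −0.77 to 6.93 in tumor mice, and that of 5 red-cell miRNAs from 7.35 to 9.35, 6.49 to 8.23 and 6.05 to 9.21. Their part in the levels of miR-199a-5p and miR-143-3p was not tested.

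Of 20 other miRNAs known from work on smooth muscle or fibroblasts, all on the panel and tested, none passed in tumor against tumor-free or in tumor-free against wild-type mice. In tumor against wild-type mice 1 rose and 1 fell, beside 8.28% of all assays called, so the count of 2 in 20 is near the background. miR-29a-3p, a repressor of collagen genes, was higher by 1.63 (SE 0.47, limma adjusted p = 0.039), with level means of 4.60 and 2.97. miR-31-5p, known from epithelia and from fibroblasts of tumors, was lower by 2.03 on the log2 scale (a difference of −2.03, SE 0.56, limma adjusted p = 0.0275), with means of −0.94 and 1.09. Both calls were lost on reference miRNA scaling (1.81 for miR-29a-3p and −1.85 for miR-31-5p) and on spike-in scaling (0.36 and −3.30). That of miR-29a-3p was also lost on raw Ct (0.25, adjusted p = 0.884) and with the hemolysis index as a covariate (1.16, adjusted p = 0.0575). With that covariate miR-31-5p passed in tumor against tumor-free mice (−1.55, adjusted p = 0.0241). Both calls were lost on leaving out single mice, 10 of the 17 for miR-29a-3p (limma adjusted p of 0.0162 to 0.119) and 3 of the 17 for miR-31-5p (0.0229 to 0.113, with differences of −2.46 to −1.78). For miR-31-5p these were wild-type replicate 1 or 3 or tumor replicate 2, and for miR-29a-3p any wild-type mouse, tumor replicate 1, 2, 6 or 7, or tumor-free replicate 3, 4 or 5. The most abundant of the list, miR-21a-5p, which rises in activated fibroblasts and in many tumors, differed by 0.89 in tumor against tumor-free (adjusted p = 0.135) and by 1.20 in tumor against wild-type mice (adjusted p = 0.0668). In the latter it passed without tumor replicate 4 (1.29, limma adjusted p = 0.0483) and when Ct values of 35 or more were treated as missing (1.17, adjusted p = 0.0482). There it was −0.18 on raw Ct and −0.070 on spike-in scaling. The next, miR-24-3p, differed by 0.52 and 0.67 (adjusted p = 0.429 and 0.32). The list's median difference was 0.25, 0.27 and 0.39 in the 3 comparisons, against 0.14, 0.03 and 0.19 for all assays.

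In the lists for other sources, none of 2 endothelial, 6 striated muscle or 5 red-cell miRNAs passed in any comparison. Of 8 platelet miRNAs, a list that shares miR-199a-3p, miR-24-3p and miR-126a-3p with others named here, miR-223-3p was higher in tumor than in wild-type mice by 1.96 (limma adjusted p = 0.0333). Of 5 liver miRNAs, miR-802-5p was lower in tumor than in tumor-free mice (a difference of −1.99, limma adjusted p = 0.0105), and 3 were lower in tumor than in wild-type mice, miR-802-5p (−2.26, adjusted p = 0.00776), miR-194-5p (−2.56, adjusted p = 0.019) and miR-192-5p (−1.57, adjusted p = 0.0199). These liver miRNAs were named after their values were seen. Over all assays, 1.48% passed in tumor against tumor-free, 0.592% in tumor-free against wild-type and 8.28% in tumor against wild-type mice. On spike-in scaling the calls over all assays fell from 5 to 0 in tumor against tumor-free and from 28 to 8 in tumor against wild-type mice. How the platelet and liver calls fared under the alternatives is not given here.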

How the data were processed

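The deposited table holds Ct values for 365 assays in 17 samples, 8 of them control assays, and the name of the file calls them not normalized. Ct is on the scale of a negative log2 amount. The threshold, plate calibration and detection rule of the authors are unstated in these sources. Empty cells were taken as not detected. No sample column of the table was left unused (0).

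Assays detected in at least 2 wild-type, 5 tumor-free and 5 tumor mice were tested (338, with 19 set aside). limma 3.58.1 in R 4.3.3 (lmFit and eBayes, 3 group means in 1 fit, two-sided) gave differences, standard errors and Benjamini-Hochberg adjusted p-values. Undetected values were missing in the fit. Within-mouse Ct differences were compared by exact permutation, detection by Fisher's exact test, and correlations by 100000 reorderings of mice within groups (Python 3.11.15, numpy 2.4.6, pandas 2.3.3, scipy 1.17.1). The scripts were tested on simulated data.

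The miRNAs, the marker lists and the tests were chosen with earlier results of these data known. Named beside them are the other assays of the same families, the 3 most correlated assays of each miRNA, the first of each list, and the most abundant 3 and the called of the smooth muscle and fibroblast list. The alternatives were the median of the panel, 6 reference miRNAs, 5 spike-in assays, raw Ct, quantile normalization, a Ct of 37 for undetected values with and without the filter, a detection limit of 35, a trended variance, exact tests per assay, the hemolysis index as a covariate, the number in the animal's label as a random block, and leaving out each mouse. Leaving out the 4 mice with 1 decimal ending, and leaving out each mouse in the correlations, were added after the data were seen. The precision is limited by the number of mice.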

Additional observations from a re-analysis of the deposited data

Results flagged for a closer look

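In 36 groups of 4 to 7 mice, 5 held a highest or lowest value set apart from the others by Dixon's test, where chance gives about 1 in 20 groups. Of these, 3 concern tumor-free replicate 2 and are not independent, since its Ct in the mouse assay of miR-214-3p (28.4) enters each of them. Its level of miR-214-3p was 2.09, against −0.69 for the next tumor-free mouse. Its Ct of miR-199a-5p minus that of miR-214-3p was 4.22 cycles, against −0.73 for the next. Its mouse assay of miR-214-3p minus the rat assay gave −1.41 cycles, against 1.84 for the nearest tumor-free mouse. The other 2 concern miR-145a-3p, which is near the detection limit. Its level was −4.04 in tumor-free replicate 1, against −5.58 for the next of 6 mice, and −4.47 in tumor replicate 7, against −6.09 for the next of 4 mice. Those 2 mice had Ct values of 32.2 and 32.4. The causes were not tested.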

How the results depend on the processing

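None of miR-143-3p, miR-145a-5p, miR-199a-5p and miR-214-3p passed in any of the 3 comparisons under any alternative run, leaving out each mouse included, nor did miR-145a-3p without the detection filter. Directions and counts were less stable.

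The number of assays called in tumor against tumor-free mice, 5, became 0 on reference miRNA scaling, raw Ct, spike-in scaling, without the 4 mice of 1 decimal ending and by exact tests per assay (57 at an unadjusted p under 0.05, none adjusted), and 13 with the hemolysis index as a covariate. It was 2 to 10 on leaving out 1 mouse, 2 or 3 without tumor replicate 3 or 4 or tumor-free replicate 1, 3 or 6, and 8 to 10 without tumor replicate 5 or 7 or tumor-free replicate 2. In tumor-free against wild-type mice, 2 assays became 1 on median or reference scaling, with a trended variance or without the 4 mice, 0 on raw Ct, spike-ins or by exact tests (85 unadjusted), 4 with undetected values at 37, with or without the filter, and 5 with the index. Leaving out 1 mouse gave 1 to 9, with 9 without wild-type replicate 1, 1 without wild-type replicate 2 or 3 or tumor-free replicate 2, 3, 5, 6 or 7, and 4 to 6 without tumor replicate 1, 4 or 5 or tumor-free replicate 1. In tumor against wild-type mice, 28 became 10 on reference scaling, 15 on raw Ct, 8 on spike-ins, 14 without the 4 mice and 0 by exact tests (45 unadjusted). Leaving out 1 mouse gave 10 to 39, with 13 without wild-type replicate 2, 10 without replicate 3 and 16 without tumor replicate 2. The smallest adjusted p of the exact tests was 0.0591, 0.0828 and 0.201, and with 7 mice against 3 no unadjusted exact p can lie below 0.00833, so their 0 against wild-type mice says nothing about stability.

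Signs that turned belonged to differences that did not pass. On raw Ct, tumor against wild type was −0.49 for miR-143-3p, −1.30 for miR-145a-5p, −0.20 for miR-199a-5p, −0.84 for miR-214-3p, −0.12 for miR-199b-5p, −0.52 and −0.074 for the rat assays of miR-143-3p and miR-214-3p, −0.18 for miR-21a-5p and −0.71 for miR-24-3p. Tumor-free against wild type was then −0.60 for miR-145a-5p, −0.16 for miR-214-3p, −0.17 for its rat assay, −0.71 for miR-21a-5p and −0.86 for miR-24-3p, and miR-29a-3p was −0.13 in tumor against tumor-free mice. On spike-in scaling, tumor against wild type was −0.38, −1.19, −0.091, −0.73 and −0.0046 for miR-143-3p, miR-145a-5p, miR-199a-5p, miR-214-3p and miR-199b-5p, −0.40 for rat miR-143-3p, −0.070 for miR-21a-5p and −0.60 for miR-24-3p. Tumor-free against wild type was −0.043, −0.73 and −0.29 for miR-143-3p, miR-145a-5p and miR-214-3p, −0.053 and −0.29 for the rat assays, −0.84 for miR-21a-5p and −0.98 for miR-24-3p. These 2 scalings moved the median of all assays to −1.07 and −1.19 in tumor-free and −1.22 and −1.08 in tumor against wild-type mice. With the index as a covariate, tumor against wild type was −0.30, −0.15, −0.43 and −0.11 for miR-145a-5p, miR-199a-5p, miR-214-3p and miR-199b-5p, and tumor-free against wild type was −0.12 for miR-24-3p. Without the 4 mice it was −0.17 for miR-145a-5p in tumor against wild-type mice, and in tumor against tumor-free mice 0.16 for miR-214-5p and −0.087 for rat miR-214-3p. In tumor against tumor-free mice, miR-214-5p was 0.12 on median scaling and 0.020 with the label number as a block (correlation 0.0703), miR-24-3p −0.018 after quantile normalization and miR-29a-3p −0.077 on reference scaling.

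On leaving out 1 mouse, tumor against tumor-free ranged from −0.58 to 0.074 for miR-145a-5p, −0.69 to 0.22 for miR-214-3p, −0.69 to 0.12 for miR-199a-3p and −0.43 to 0.37 for miR-214-5p. Tumor against wild type ranged from −0.22 to 0.50 for miR-145a-5p and −0.46 to 1.79 for miR-214-3p. Tumor-free against wild type ranged from −0.14 to 2.11 for miR-214-3p, −0.032 to 1.68 for its rat assay and −0.15 to 0.41 for miR-24-3p. Of the within-mouse Ct differences, miR-143-3p minus miR-145a-5p in tumor against tumor-free mice ranged from −0.26 to 0.22 and was 0.18 by medians. miR-145a-3p minus miR-145a-5p ranged from −0.74 to 0.21 in tumor-free against wild-type mice, with 0.15 by medians, and was 0.029 in tumor against tumor-free mice with undetected values at 37. The 2 miRNAs that passed against the hemolysis index became 0 on raw Ct, spike-ins or without the 2 farthest mice. Of the 6 pairs, 1 passed, 0 or 1 on leaving out 1 mouse, 3 on raw Ct and 4 on spike-ins, and miR-145a-5p with miR-214-3p was −0.12 without the 2 farthest mice. The share of all relations that passed on raw Ct and on spike-ins is not given here, so those 2 counts are not read as a result about the pairs. The causes were not tested. The 3 wild-type mice, 1 with an early U6 signal, limit both comparisons with them.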
